A study of Mus musculus with 18 samples.

Results

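Gene expression was compared between 2 groups of cultured mouse smooth muscle cells, D_I and H_I, which differ in the agent that stressed them and share isoliensinine. D_I was read as doxorubicin plus isoliensinine and H_I as hydrogen peroxide plus isoliensinine, because the titles run parallel to those of the groups without isoliensinine; the treatment label of both gives isoliensinine alone. These are 6 of the 18 libraries of the series, 3 in each group, chosen by their titles and not by any measured value. The cells are MOVAS, a single line from mouse aorta. The other groups used here are Dox and H2O2, the same inducers without isoliensinine, B_I, isoliensinine with no inducer, and Blank, the untreated control, each with 3 libraries. The design text calls the replicates biological and names both inducers as causes of cellular senescence, and the title of the series concerns the clearance of senescent cells by natural killer cells. The sources used here give no doses, times of treatment or passage numbers, so whether the agents were matched in strength is not known.

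Doxorubicin is an anthracycline that traps topoisomerase II on DNA and leaves strand breaks, to which cells respond through the transcription factor p53. Hydrogen peroxide oxidises proteins, lipids and DNA and is handled by antioxidant enzymes. Either agent can drive cells into senescence, a lasting arrest of the cell cycle with a changed set of secreted proteins. Isoliensinine is a bisbenzylisoquinoline alkaloid from lotus seed embryos.

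The D_I libraries held 15329101 to 16921525 counts and the H_I libraries 12859609 to 15740546. On the first principal component of these 6 libraries (38.7% of the variance) H_I_1 lay at -58.84, and H_I_2 and H_I_3 at -9.71 and -14.06. D_I_3 also lay apart from its group, at 13.93, against 34.05 and 34.63 for D_I_1 and D_I_2. A list of 30 colon epithelial genes summed to 231 to 327 CPM (read counts scaled to a common library size) in D_I and to 347 to 1094 CPM in H_I, with H_I_1 highest. A list of 25 liver genes summed to 175 to 215 CPM in D_I and 248 to 654 CPM in H_I. The median log2 fold changes of these lists were -1.25 and -1.09. In the fit of 18 libraries 0 of 30 colon genes and 2 of 24 tested liver genes were called, both lower in D_I, and none of either list without H_I_1, while a fit of the 6 libraries alone called 7 colon and 8 liver genes lower. The part of these transcripts in the results below was not tested, and counts of called list members are given with and without H_I_1. Each list count is to be read beside the shares of all genes tested. These were 4.73% higher and 3.47% lower, or 2.03% and 2.92% without H_I_1. Of the defining smooth muscle markers, Acta2 was abundant, while Tagln stood at 0.114 to 0.124 CPM in D_I and 0.202 to 0.432 CPM in H_I, and Myocd at 0 to 0.0622 CPM in D_I and 0.337 to 0.663 CPM in H_I. Tpm2 stood at 369 to 406 CPM in D_I and 471 to 493 CPM in H_I. Myl9 stood at 100 to 141 CPM in D_I and 127 to 147 CPM in H_I, and Myh11 at 4.98 to 9.14 and 10.6 to 31.6 CPM. Mylk stood at 12.3 to 16.0 CPM in D_I and 9.25 to 17.6 CPM in H_I, and Smtn at 125 to 126 and 102 to 127 CPM. Cnn1, Lmod1 and Synpo2 also overlapped between the groups. Of 10 tested smooth muscle markers 0 were called higher and 1 lower, and 0 and 0 without H_I_1, with a median log2 fold change of -0.26. The 12 listed markers summed to 1500 to 1775 CPM in D_I and 2639 to 3284 CPM in H_I, and Acta2 made up most of these sums. Cultures were measured in bulk, so fewer cells of a kind and less RNA per cell cannot be told apart.

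The cells that had received doxorubicin with isoliensinine carried more p53 target, interferon-stimulated and mitotic transcripts than those that had received peroxide with isoliensinine, and fewer transcripts of sterol synthesis genes, while matrix genes were called in both directions. Of 13375 genes tested, 1097 were called (8.2%), meaning a Benjamini-Hochberg adjusted p under 0.05 by edgeR's quasi-likelihood test. Of these, 633 were higher in D_I (4.73%) and 464 lower (3.47%). The difference exceeded 2-fold for 153 called genes (1.14%), 69 higher and 84 lower, and for 132 without H_I_1, 51 higher and 81 lower. The median log2 fold change over all genes tested was -0.00, with a median standard error (SE) of 0.231. The last gene called was Phgdh (log2 -0.32, adjusted p = 0.0499) and the first not called Atp2a2 (log2 0.41, adjusted p = 0.0501). The split leaned the other way under other scalings, with 468 higher and 532 lower by DESeq2 size factors and 514 higher and 661 lower by upper-quartile scaling. Without H_I_1, 663 genes were called (4.96%), 272 higher (2.03%) and 391 lower (2.92%), and 628 of the 1097 kept their call.

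**Figure D1:**
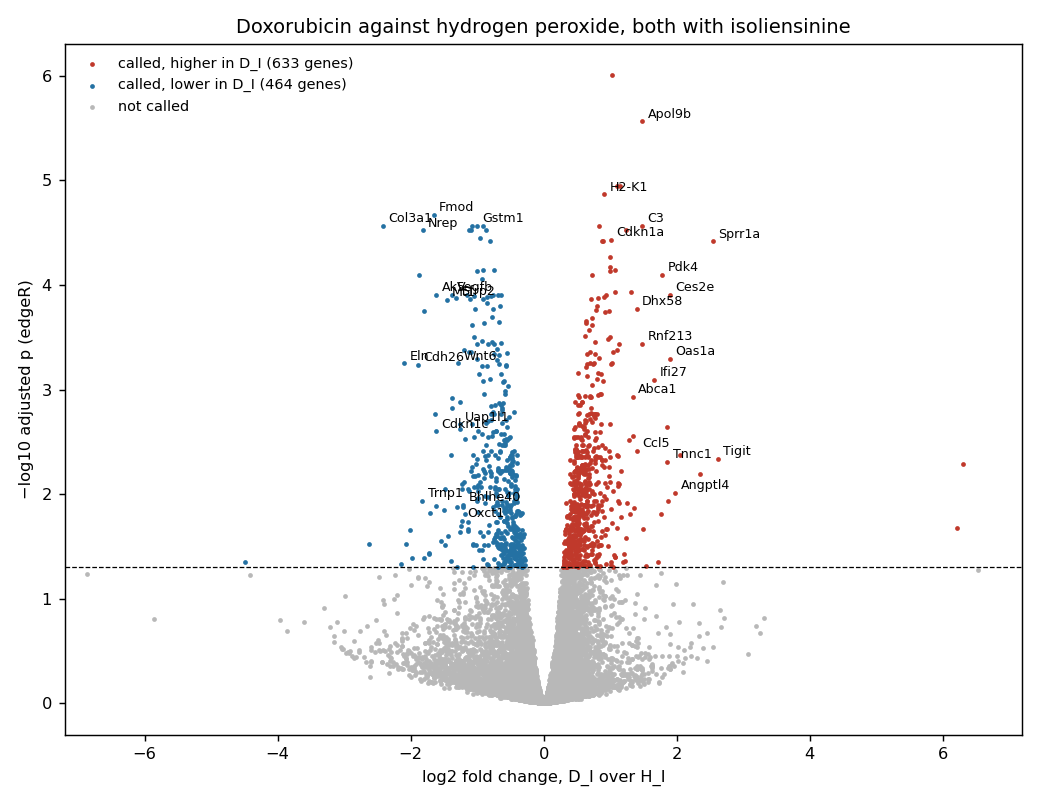
Each point is a gene tested; the horizontal axis gives the log2 fold change of D_I over H_I and the vertical axis −log10 of the edgeR adjusted p, with a dashed line at 0.05. The 633 genes called higher in D_I lie to the right and the 464 called lower to the left, with Sprr1a and Tigit far to the right and Col3a1 far to the left among the named genes.

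Targets of p53 were higher in D_I. Of 36 tested, 14 were called higher and 0 lower, against 4.73% and 3.47% of all genes tested, and the list's median log2 fold change was 0.55; without H_I_1 the counts were 8 and 0. Cdkn1a (ENSMUSG00000023067, on chromosome 17), which encodes the cell-cycle inhibitor p21, had 492, 425 and 432 CPM in D_I, against 229, 232 and 209.96 CPM in H_I. The groups did not overlap, and the log2 fold change was 1.01 (SE 0.123, edgeR adjusted p = 3.72e-05). Mdm2, which encodes the ubiquitin ligase that degrades p53, had 19.98, 15.4 and 17.03 CPM in D_I, against 6.05, 5.61 and 9.78 CPM in H_I (log2 1.29, SE 0.255, edgeR adjusted p = 0.00301). Btg2, an antiproliferative gene, averaged 70.9 ± 5.84 CPM in D_I and 33.6 ± 0.835 CPM in H_I (SD, n = 3 each; log2 1.08, edgeR adjusted p = 7.22e-05). Zmat3, an RNA-binding protein induced by p53, was also higher (log2 0.79, edgeR adjusted p = 0.000174). The transcript of p53 itself did not stand apart: Trp53 had 240.2, 232 and 239 CPM in D_I, against 242, 258 and 227 CPM in H_I (log2 -0.03, 95% interval -0.23 to 0.17, edgeR adjusted p = 0.903).

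The other inhibitors called, Cdkn2a and Cdkn1c, were lower in D_I. Among 29 inhibitors of the cell cycle and senescence regulators, 1 was called higher and 3 lower, with 0 and 3 without H_I_1, and the median was -0.22. Cdkn2a, whose locus encodes p16 and p19ARF in overlapping frames that a gene count does not separate, had 74.2, 82.2 and 86.1 CPM in D_I, against 130.1, 136 and 123 CPM in H_I. Every D_I library was below every H_I library (log2 -0.68, SE 0.158, edgeR adjusted p = 0.00888). Cdkn1c, which encodes the inhibitor p57, had 3.73, 3.45 and 2.61 CPM in D_I, against 9.66, 9.93 and 10.4 CPM in H_I (log2 -1.61, edgeR adjusted p = 0.00251). Cdk4, the kinase that p16 inhibits and that drives the cell cycle, was lower as well (log2 -0.54, edgeR adjusted p = 0.000927), and the lamin gene Lmnb2 was the one called higher (log2 0.63, edgeR adjusted p = 0.0196). For Lmnb1, a lamin whose loss is often used as a sign of senescence, the log2 value was -0.32 (edgeR adjusted p = 0.195), and for Glb1, which encodes the enzyme behind senescence-associated beta-galactosidase staining, it was -0.16 (edgeR adjusted p = 0.359).

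Transcripts of mitosis were higher in D_I, as Cdkn1a was. Of 44 mitosis and kinetochore genes 11 were called higher and 0 lower, with a median of 0.37, and without H_I_1 the counts were 5 and 0. Kif2c, a kinesin that takes microtubules apart at the kinetochore, had 180.3, 158 and 158 CPM in D_I, against 115, 116 and 112 CPM in H_I (log2 0.53, SE 0.0941, edgeR adjusted p = 0.00117). Tpx2, which activates the kinase Aurora A on the spindle, had 293, 283 and 262 CPM in D_I, against 184, 187 and 171 CPM in H_I (log2 0.63, edgeR adjusted p = 0.00444). Ube2c, which helps to degrade cyclins at anaphase, was higher by log2 0.76 (edgeR adjusted p = 0.00998). The proliferation marker Mki67 had 37.7, 22.4 and 32.3 CPM in D_I, against 16.0, 16.7 and 15.5 CPM in H_I (log2 0.94, edgeR adjusted p = 0.0111), and lost its call without H_I_1 (adjusted p = 0.0564). DNA replication and E2F target genes were mixed, with 5 of 43 called higher and 2 lower, and 1 and 4 without H_I_1. E2f2, a transcription factor of the S phase, was higher (log2 0.92, edgeR adjusted p = 0.00788), while Chaf1b, a subunit of the chromatin assembly factor, was lower (log2 -0.64, edgeR adjusted p = 0.000124). Of 37 DNA damage signalling and repair genes 3 were called higher and 0 lower, with 1 and 0 without H_I_1. The share called, 8.11%, was near that of all genes tested, 8.2%. Mdc1, which holds repair factors at broken DNA, had 167, 167 and 150.2 CPM in D_I, against 108, 108 and 109 CPM in H_I (log2 0.58, edgeR adjusted p = 0.00386).

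In the 300-base promoter windows of RefSeq (GRCm38.p6, 250 bases before to 50 after the start; any window of a gene counts), the cell-cycle homology region TTTGAA, searched on both strands, was found in 26 of the 37 mitosis genes with an entry (70.3%) and in 14.4% of the 10595 tested genes with an entry. The CCAAT box was found in 75.7% of the same mitosis genes and in 43% of all. The sterol element TCACNCCAC, searched in the same way, was found in 1 of 24 sterol synthesis and uptake genes with an entry (4.17%), in 0 of the 7 called ones and in 1.4% of all. These are matches of letters and not mapped sites.

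Interferon-stimulated genes made up the other large group that was higher in D_I. Of 54 tested, 19 were called higher and 0 lower, with a median log2 fold change of 0.65, and without H_I_1 the counts were 13 and 0. Many such genes carry an interferon-stimulated response element (ISRE) near the start of transcription. The pattern GAAA, 2 bases of any kind and GAAA again, searched on both strands, was found in the promoter windows of 20 of the 40 list members with a RefSeq entry (50%), in 7 of the 14 called members with one, and in 3.78% of the 10595 tested genes. The stretches that follow are from 4 genes higher in D_I, chosen after their values were seen to show the element in list members and in genes named below; each is 100 bases of the coding strand, 5′ to 3′, with the matches in capitals. Oas1a (chr5:120907526-120907625, minus strand), Isg15 (chr4:156200819-156200918, minus strand) and Apol9b (chr15:77728972-77729071, plus strand) are shown from 100 bases before the start to the base before it, and B2m (chr2:122147487-122147586, plus strand) from 200 to 101 bases before it, all in GRCm38.p6.
Oas1a: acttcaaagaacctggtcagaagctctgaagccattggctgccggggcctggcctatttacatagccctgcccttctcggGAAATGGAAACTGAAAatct
Isg15: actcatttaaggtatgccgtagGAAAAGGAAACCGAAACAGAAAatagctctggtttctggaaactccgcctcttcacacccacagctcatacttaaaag
Apol9b: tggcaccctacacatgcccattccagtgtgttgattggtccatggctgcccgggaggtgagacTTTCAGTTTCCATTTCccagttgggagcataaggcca
B2m: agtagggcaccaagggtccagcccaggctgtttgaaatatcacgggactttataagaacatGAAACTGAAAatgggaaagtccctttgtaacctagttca
In Apol9b the element is on the opposite strand and so reads as its reverse complement.

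Oas1a, an enzyme that senses double-stranded RNA, had 27.3, 30.9 and 22.1 CPM in D_I, against 7.52, 7.21 and 6.68 CPM in H_I. That is 3.75-fold (log2 1.91, SE 0.308, edgeR adjusted p = 0.000507). Its libraries did not overlap, and nor did those of 36.9% of all genes tested. Lack of overlap was a condition for the set of largest differences, to which Oas1a belongs. Ifi27, a mitochondrial interferon-induced protein, had 518, 596 and 472 CPM in D_I, against 167, 153 and 182 CPM in H_I (3.16-fold, edgeR adjusted p = 0.000809). Apol9b, an apolipoprotein L gene outside the list that has a near-identical neighbour with which reads may be shared, had 172, 170.3 and 135 CPM in D_I, against 52.8, 59.8 and 58.01 CPM in H_I (2.80-fold, edgeR adjusted p = 2.73e-06). The helicase-like sensor Dhx58 (log2 1.40), the RNA-activated kinase Eif2ak2 (log2 1.26) and the ubiquitin-like Isg15 (log2 0.82) were also called, with edgeR adjusted p of 0.000169, 0.0122 and 0.00765. Eif2ak2 was called in 16 of 18 alternative fits. Isg15 had 23.3, 22.1 and 15.2 CPM in D_I, against 11.9, 12.02 and 10.4 CPM in H_I. Rnf213, a large ubiquitin ligase known to answer to interferon, was higher by 2.79-fold (edgeR adjusted p = 0.000366).

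Genes through which killer lymphocytes read a cell were considered next, since natural killer cells are the subject of the series. Of 22 genes of MHC class I presentation, whose products restrain natural killer cells, 3 were called higher and 0 lower, with the same counts without H_I_1. The heavy chain gene H2-K1 had 642, 659 and 624 CPM in D_I, against 338, 336 and 349 CPM in H_I (log2 0.91, SE 0.0967, edgeR adjusted p = 1.36e-05). H2-D1, a second heavy chain, had 415, 459.6 and 429 CPM in D_I, against 213, 218 and 218 CPM in H_I (log2 1.01, edgeR adjusted p = 5.45e-05). B2m, the shared light chain, had 1921, 1922 and 1831 CPM in D_I, against 1431, 1293 and 1262 CPM in H_I (log2 0.51, edgeR adjusted p = 0.00545). In all of these the groups were apart, while the median of the list was 0.12. The heavy chain genes are near copies of each other and reads may be split between them.

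Of 13 ligands that activate natural killer cells, 1 was called higher and 0 lower, with the same counts without H_I_1, and the median was -0.03. The share called, 7.69%, was near that of all genes tested, 8.2%. The gene called in the fit of all libraries was Pvr, a ligand of the receptor DNAM-1, with 94.9, 95.7 and 83.9 CPM in D_I, against 75.3, 70.9 and 61.4 CPM in H_I (log2 0.40, SE 0.107, edgeR adjusted p = 0.0216). Pvr was called in 12 of 18 alternative fits, and its adjusted p by their tests reached 0.132. With DESeq2 size factors it was not called (edgeR adjusted p = 0.0507). Ulbp1, a ligand of NKG2D, had 39.8, 29.9 and 32.4 CPM in D_I, against 27.4, 28.1 and 29.3 CPM in H_I (log2 0.27, 95% interval -0.29 to 0.82, edgeR adjusted p = 0.635). Among 15 inhibitory ligands for killer cells and phagocytes 1 was called in each direction, with the same counts without H_I_1. Cd80, which binds CD28 and CTLA4 on T cells, had 6.22, 6.07 and 6.36 CPM in D_I, against 1.33, 1.36 and 1.82 CPM in H_I (4.12-fold, edgeR adjusted p = 0.0042), and Cd24a, a surface protein read by phagocytes, was lower (log2 -0.86, edgeR adjusted p = 0.000597). Tigit, best known as a receptor of T and natural killer cells that binds Pvr, had 8.65, 8.39 and 8.80 CPM in D_I, against 2.51, 1.23 and 0.472 CPM in H_I (6.16-fold, edgeR adjusted p = 0.00459). The lymphocyte marker Ncr1 had no count in any of the 6 libraries, and a list of 17 lymphocyte genes summed to 4.05 to 5.68 CPM in D_I and 2.16 to 8.85 CPM in H_I.

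**Figure D2:**
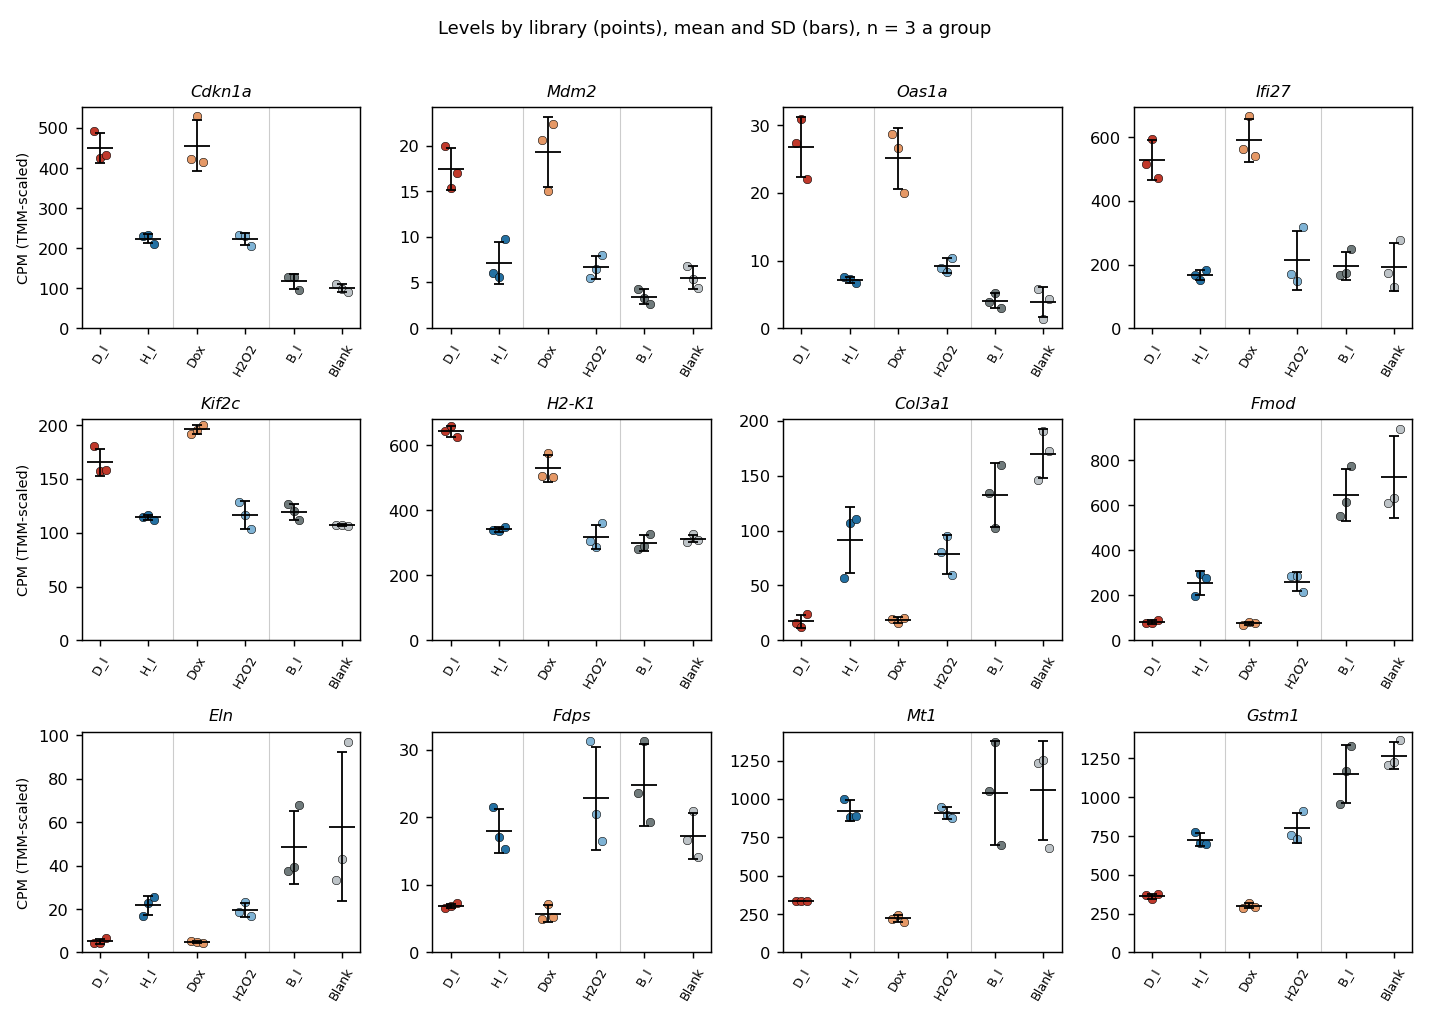
Levels of 12 genes in CPM in each library, by group; points are libraries and bars the mean ± SD (n = 3). Cdkn1a, Mdm2, Oas1a, Ifi27, Kif2c and H2-K1 were higher in every D_I library than in any H_I library, and Col3a1, Fmod, Eln, Fdps, Mt1 and Gstm1 lower.

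Secreted factors of senescent cells leaned upwards, with 6 of 40 called higher and 1 lower, 4 and 1 without H_I_1, and a median of 0.24. Hbegf, a growth factor of the EGF family, had 54.7, 50.9 and 45.3 CPM in D_I, against 19.98, 21.3 and 19.6 CPM in H_I (2.48-fold, edgeR adjusted p = 0.000117). Angptl4, an inhibitor of lipoprotein lipase, had 29.4, 33.7 and 28.8 CPM in D_I, against 9.22, 8.69 and 5.40 CPM in H_I (3.94-fold, edgeR adjusted p = 0.00964). Csf1, the growth factor of macrophages, was higher by 1.70-fold (edgeR adjusted p = 0.0018). Spp1, which encodes osteopontin, was called (log2 0.78, edgeR adjusted p = 0.0153) but not without H_I_1 (adjusted p = 0.0954). Igfbp5, which binds insulin-like growth factors, was the exception, with 3.61, 3.03 and 4.03 CPM in D_I, against 9.66, 10.8 and 7.49 CPM in H_I (log2 -1.39, edgeR adjusted p = 0.00426). C3, the central complement component, had 244, 231 and 278 CPM in D_I, against 89.6, 90.9 and 89.1 CPM in H_I (2.79-fold, edgeR adjusted p = 2.70e-05).

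Of 16 chemokines 2 were called higher and 1 lower (18.8%, against 8.2% of all genes tested), and 1 and 1 without H_I_1. Ccl5, which attracts T and natural killer cells, had 5.73, 4.34 and 5.05 CPM in D_I, against 2.29, 1.54 and 1.89 CPM in H_I (2.65-fold, edgeR adjusted p = 0.00386). Cxcl12, which retains leukocytes that carry CXCR4, had 108, 114 and 119 CPM in D_I, against 138, 176 and 166 CPM in H_I (log2 -0.49, edgeR adjusted p = 0.0059). Ccl2, which attracts monocytes, overlapped between the groups at 2.50 to 4.46 CPM in D_I and 3.10 to 5.60 CPM in H_I (log2 -0.37, edgeR adjusted p = 0.749). Il6 did not pass the filter on low counts. Among 25 NF-kB target genes 1 was called higher and 0 lower (4%, against 8.2% of all genes tested), with 0 and 0 without H_I_1.

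Matrix genes were called in both directions. Among 35 collagens and elastic fibre genes 4 were called higher and 6 lower, and 2 and 6 without H_I_1, with a median of -0.12. Col3a1 (ENSMUSG00000026043, on chromosome 1), the chain of type III collagen, had 15.4, 12.4 and 23.6 CPM in D_I, against 57.1, 107 and 110.5 CPM in H_I. H_I_1 was the lowest H_I library and still above every D_I library (5.33-fold lower in D_I, log2 -2.41, SE 0.262, edgeR adjusted p = 2.70e-05). Eln, which encodes elastin, had 4.17, 4.52 and 6.53 CPM in D_I, against 16.8, 22.8 and 25.6 CPM in H_I (log2 -2.10, edgeR adjusted p = 0.000562). Fbln5, which helps elastin to assemble, was lower by 2.18-fold (edgeR adjusted p = 3.02e-05), and Col1a2, a chain of type I collagen, had 2042, 2143 and 2199 CPM in D_I, against 3464, 4437 and 4094 CPM in H_I (log2 -0.91, edgeR adjusted p = 0.000136). Col1a1, the other chain of type I collagen, and Efemp2, an elastic fibre protein, were also lower (log2 -0.55 and -0.44, edgeR adjusted p = 0.00477 and 0.0323). The 4 called higher were Ltbp1, which binds latent TGF-beta, Col18a1, a basement membrane collagen, and the fibulins Fbln1 and Fbln2, by 1.38-fold to 1.61-fold (edgeR adjusted p of 0.00341 to 0.0165). Several collagens also serve as fibroblast markers. Of 12 tested fibroblast markers 1 was called higher and 4 lower, with the same counts without H_I_1 and a median of -0.52. The 13 listed markers summed to 9614 to 10256 CPM in D_I and 9314 to 11287 CPM in H_I, sums in which the higher Fn1 offsets the lower Col1a1 and Col1a2.

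Proteoglycans, crosslinkers and other matrix genes had calls both ways, with 9 of 39 higher and 7 lower, and 5 and 6 without H_I_1. Fmod, which encodes fibromodulin, a small proteoglycan that binds collagen fibrils, had 76.0, 77.6 and 90.6 CPM in D_I, against 196, 293 and 278 CPM in H_I (log2 -1.65, SE 0.178, edgeR adjusted p = 2.13e-05). Tnc, which encodes the adhesion-modulating tenascin C, was lower as well (log2 -1.12, edgeR adjusted p = 0.00931). Fn1, which encodes fibronectin, went the other way, with 5307, 5701 and 5468 CPM in D_I, against 2676, 3067 and 2821 CPM in H_I (log2 0.94, edgeR adjusted p = 0.000124). Hspg2, which encodes the basement membrane proteoglycan perlecan, had 559.8, 594 and 588 CPM in D_I, against 279, 335 and 306 CPM in H_I (log2 0.92, edgeR adjusted p = 0.00018). Of 35 matrix proteases and inhibitors 4 were called higher and 4 lower, and 3 and 2 without H_I_1. The aggrecanase Adamts4 and the gelatinase Mmp2 were higher (log2 1.29 and 0.60), and the procollagen peptidase Adamts2 lower (log2 -0.90), with edgeR adjusted p of 0.0153, 0.00341 and 2.70e-05. Adamts4 was called in 15 of 18 alternative fits.

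Contractile genes were mostly uncalled in the fit of 18 libraries, where 0 of 28 were higher and 2 lower (7.14%, against 8.2% of all genes tested). Acta2, which encodes smooth muscle actin, had 853, 891 and 1047 CPM in D_I, against 2437, 2299 and 1862 CPM in H_I. The groups were far apart, yet edgeR gave an adjusted p of 0.26 (log2 -1.24, SE 0.595). Its SD was 1573 CPM in B_I and 2113 CPM in Blank, against 103 CPM in D_I and 299.9 CPM in H_I, and the fit pools the spread of all groups. Fitted on the 6 libraries of D_I and H_I alone it was called (adjusted p = 1.39e-06), and so it was without Blank_4 and B_I_3 (adjusted p = 1.06e-07), in which Acta2 stood at 4513 and 3874 CPM. In the fit of 6 libraries 11 of 28 contractile genes were lower and 1 higher, where 11.1% and 12.7% of all genes were called in those directions. In D_I 12 of the 28 had every library below every H_I library and 3 every library above, against 16.7% and 20.3% of all genes. Vim, the intermediate filament vimentin, was called lower (log2 -0.66, edgeR adjusted p = 0.000468). Actg2, the actin of visceral smooth muscle, had 1.43, 1.73 and 2.61 CPM in D_I, against 13.4, 6.91 and 4.11 CPM in H_I (log2 -2.07, edgeR adjusted p = 0.0299), with H_I_1 highest. Without H_I_1 the only member of the list called was Vim (edgeR adjusted p = 0.00195), and Actg2 lost its call.

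Sterol synthesis and uptake genes were lower in D_I, with 13 of 35 called lower and 0 higher, and 11 and 0 without H_I_1. The median log2 fold change was -0.51, and 27 of the 35 had every D_I library below every H_I library, against 16.7% of all genes. Fdps, which makes farnesyl pyrophosphate, had 6.60, 6.84 and 7.27 CPM in D_I, against 21.6, 17.1 and 15.4 CPM in H_I (2.61-fold lower, SE of the log2 value 0.245, edgeR adjusted p = 0.00121). Mvk, mevalonate kinase, had 56.7, 56.9 and 60.9 CPM in D_I, against 98.9, 108 and 93.4 CPM in H_I (log2 -0.79, edgeR adjusted p = 0.00144). The thiolase Acat2 and the sterol carrier Stard4 were lower as well (log2 -0.75 and -0.95, edgeR adjusted p = 0.000453 and 0.00847). Hmgcs1, an early enzyme of the pathway, was not called (log2 -0.73, edgeR adjusted p = 0.231). Of 17 cholesterol efflux genes 2 were called higher and 0 lower, with the same counts without H_I_1. Abca1, the pump that loads cholesterol onto apolipoprotein A1, had 65.7, 57.95 and 51.8 CPM in D_I, against 25.8, 22.9 and 20.4 CPM in H_I (2.54-fold, edgeR adjusted p = 0.00117), and the transporter Abca2 was also higher (log2 0.83, edgeR adjusted p = 2.70e-05).

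Of 52 lysosome and autophagy genes 7 were called lower and 2 higher, and 8 and 2 without H_I_1, with a median of -0.16. Ctsa, the protective protein of lysosomal galactosidase, had 454, 462 and 457 CPM in D_I, against 769, 793 and 766 CPM in H_I (log2 -0.76, edgeR adjusted p = 0.00162). Npc2, which carries cholesterol inside the lysosome, was lower (log2 -0.71, edgeR adjusted p = 0.00746), and Ulk1, the kinase that starts autophagy, higher (log2 0.71, edgeR adjusted p = 0.00152). A list of 16 macrophage markers, several of them lysosomal, summed to 384 to 432 CPM in D_I and 552 to 594 CPM in H_I, with 0 of 13 tested called higher and 1 lower, and the same without H_I_1. Most of that gap was Lgals3, which encodes galectin-3, at 325 to 355 CPM in D_I and 494 to 507 CPM in H_I (edgeR adjusted p = 0.0165). The lysosomal marker Cd68 stood at 19.7 to 23.1 CPM in D_I and 8.99 to 10.9 CPM in H_I and was not called (log2 1.06, edgeR adjusted p = 0.0999).

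**Figure D3:**
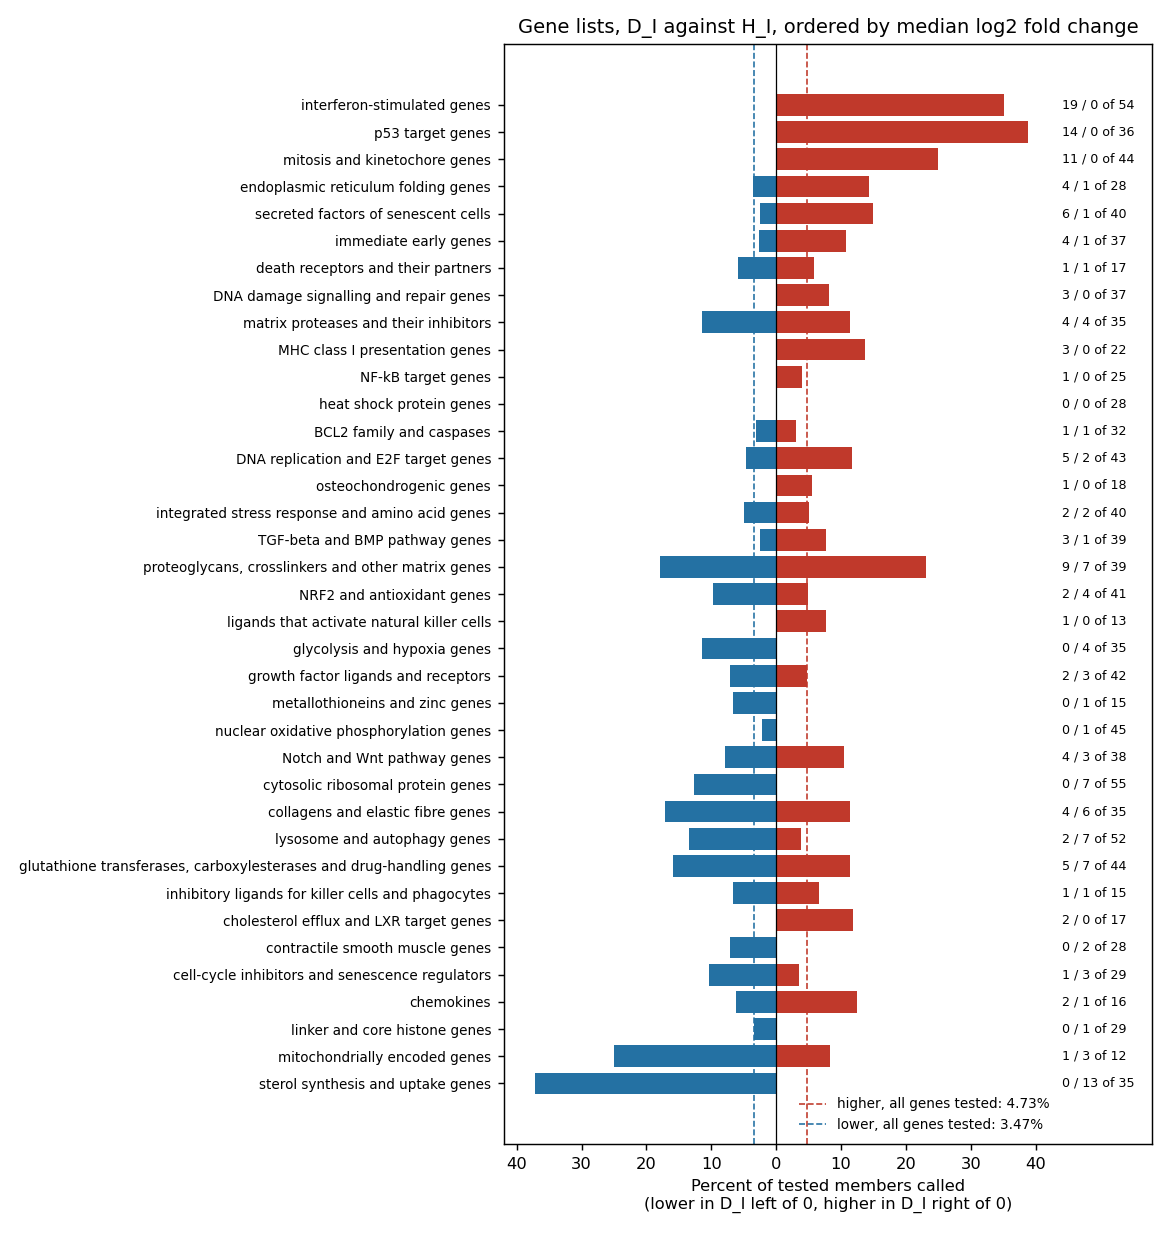
Each bar gives the percent of a list's tested genes called higher (right) or lower (left) in D_I against H_I, with counts at the right, lists ordered by median log2 fold change, and dashed lines at the share of all genes tested, 4.73% and 3.47%. Interferon-stimulated and p53 target genes lie at the top with calls on the right side only, and sterol synthesis genes at the bottom with calls on the left side only.

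Enzymes that handle drugs and reactive compounds were split. Of 44 glutathione transferases, carboxylesterases and related genes 5 were called higher and 7 lower, and 3 and 5 without H_I_1. Ces2e, a carboxylesterase with close copies in the genome, had 105, 92.4 and 87.7 CPM in D_I, against 33.0, 23.9 and 19.2 CPM in H_I (3.74-fold, edgeR adjusted p = 0.000124). Gstm1, a glutathione transferase, had 368, 344 and 375 CPM in D_I, against 774, 703 and 699 CPM in H_I (log2 -1.001, SE 0.115, edgeR adjusted p = 2.70e-05). Aldh3a1, an aldehyde dehydrogenase, was lower by 2.16-fold (edgeR adjusted p = 0.000136). Mt1, which encodes a metallothionein that binds zinc, had 338, 335 and 336 CPM in D_I, against 1001, 879 and 886 CPM in H_I (log2 -1.46, edgeR adjusted p = 0.000138), and was the only called gene of 15 in its list. That is 6.67% of the list, against 8.2% of all genes tested. Without H_I_1 the zinc transporter gene Slc39a7 was called as well, higher in D_I (log2 1.52, edgeR adjusted p = 0.0351). Among 41 NRF2 and antioxidant genes 2 were called higher and 4 lower (14.6%, against 8.2% of all genes tested), and 1 and 2 without H_I_1. Osgin1, an oxidative stress-induced growth inhibitor, was higher (log2 0.90, edgeR adjusted p = 0.00545), and the ferritin light chain gene Ftl1 lower (log2 -0.91, edgeR adjusted p = 0.000834). Hmox1, the haem-degrading enzyme often used to mark oxidative stress, had 259, 250.3 and 229 CPM in D_I, against 216, 203 and 178 CPM in H_I, and was not called (log2 0.30, edgeR adjusted p = 0.0689).

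Calls also fell in other functions, where 4.73% of all genes tested were called higher and 3.47% lower. Of 55 cytosolic ribosomal protein genes, many of which have processed copies, 7 were lower and 0 higher, with the same counts without H_I_1 and a median of -0.11. Rpl14 had 492, 537 and 520.4 CPM in D_I, against 726, 885 and 889 CPM in H_I (log2 -0.69, edgeR adjusted p = 0.000124). Of 28 endoplasmic reticulum folding genes 4 were higher and 1 lower, and 2 and 0 without H_I_1; the stress sensor Ern1 was higher by log2 1.02 (edgeR adjusted p = 0.000575) and the chaperone Hyou1 by log2 0.75 (edgeR adjusted p = 0.00171). The stress factor Ddit3 was not called (log2 0.39, edgeR adjusted p = 0.307). Of 12 mitochondrially encoded genes 1 was higher and 3 lower, and 1 and 0 without H_I_1. The higher one was mt-Co1, a subunit of cytochrome oxidase, at log2 0.58 (edgeR adjusted p = 0.00224). Of 35 glycolysis and hypoxia genes 4 were lower and 0 higher, with the same counts without H_I_1, among them Ndrg1, a hypoxia-induced gene (log2 -0.65, edgeR adjusted p = 0.000159). Of 38 Notch and Wnt pathway genes 4 were higher and 3 lower, and 2 and 4 without H_I_1. Notch1 and Notch3, receptors through which neighbouring cells signal, were higher (log2 0.999 and 0.62), while Wnt6, a Wnt ligand, and Sfrp2, a secreted Wnt binder, were lower (log2 -1.28 and -1.32), with edgeR adjusted p of 0.000312, 0.00527, 0.000562 and 0.000135.

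Some of the largest differences were in genes outside these lists. Sprr1a, which encodes a protein of the cornified envelope, had 13.9, 13.6 and 12.04 CPM in D_I, against 2.06, 3.21 and 1.42 CPM in H_I (5.86-fold, edgeR adjusted p = 3.84e-05). Pdk4, the kinase that turns off pyruvate dehydrogenase, had 22.2, 22.6 and 18.7 CPM in D_I, against 4.05, 6.66 and 7.62 CPM in H_I (3.45-fold, edgeR adjusted p = 7.97e-05). Tnnc1, the troponin C of slow muscle and heart, had 4.36, 8.45 and 10.05 CPM in D_I, against 1.84, 2.40 and 2.02 CPM in H_I (3.63-fold, edgeR adjusted p = 0.00494). Its D_I libraries were spread widely. That all lay above H_I was a condition of its choice. In the other direction, the cadherin gene Cdh26 had 3.80, 4.28 and 3.92 CPM in D_I, against 11.5, 19.4 and 13.8 CPM in H_I (3.72-fold lower, edgeR adjusted p = 0.000576). Vegfb, a growth factor related to VEGF-A, had 35.8, 38.4 and 35.6 CPM in D_I, against 91.7, 107 and 86.1 CPM in H_I (2.60-fold lower, edgeR adjusted p = 0.000123). Nrep, Ak5, Trnp1, Uap1l1, Oxct1 and Bhlhe40 were lower by 2.31-fold to 3.54-fold (edgeR adjusted p of 3.02e-05 to 0.0181). Oxct1 was called in 14 of 18 alternative fits and Trnp1 and Bhlhe40 in 16 of 18 each, the others in all 18.

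The same inducers without isoliensinine, Dox against H2O2, share no library with this comparison. There 1746 genes were called (13.1%), 900 higher in Dox (6.73%) and 846 lower (6.33%), with 280 over 2-fold (2.09%). Both comparisons called 664 genes, all 664 with the same sign, which is 60.5% of the calls with isoliensinine and 38.0% of those without. Of the 1097 genes called between D_I and H_I, 1057 (96.4%) had the same sign between Dox and H2O2. Without H_I_1, 452 of 663 calls were shared, all 452 with the same sign, and 643 (97%) had the same sign. Across the 13375 genes, which are not independent, Pearson's r of the log2 fold changes was 0.23 and Spearman's rho 0.38, and over the called genes r was 0.85. Cdkn1a averaged 456 ± 64.0 CPM in Dox and 222 ± 15.2 CPM in H2O2, and Col3a1 18.4 ± 2.46 CPM in Dox and 78.5 ± 17.9 CPM in H2O2 (SD, n = 3 each), close to their values with isoliensinine. By list the counts without isoliensinine were 14 higher and 0 lower for p53 targets, 26 and 0 for interferon-stimulated genes, 21 and 0 for mitosis genes, and 0 and 13 for sterol genes. In some other lists the counts were less alike. Of 29 linker and core histone genes 0 were higher and 11 lower without isoliensinine (median -1.96), and 0 and 1 with it (median -0.35). Of 52 lysosome and autophagy genes 1 was higher and 18 lower without it, and 2 and 7 with it. EdgeR called 0 members of either list in the interaction test below.

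**Figure D4:**
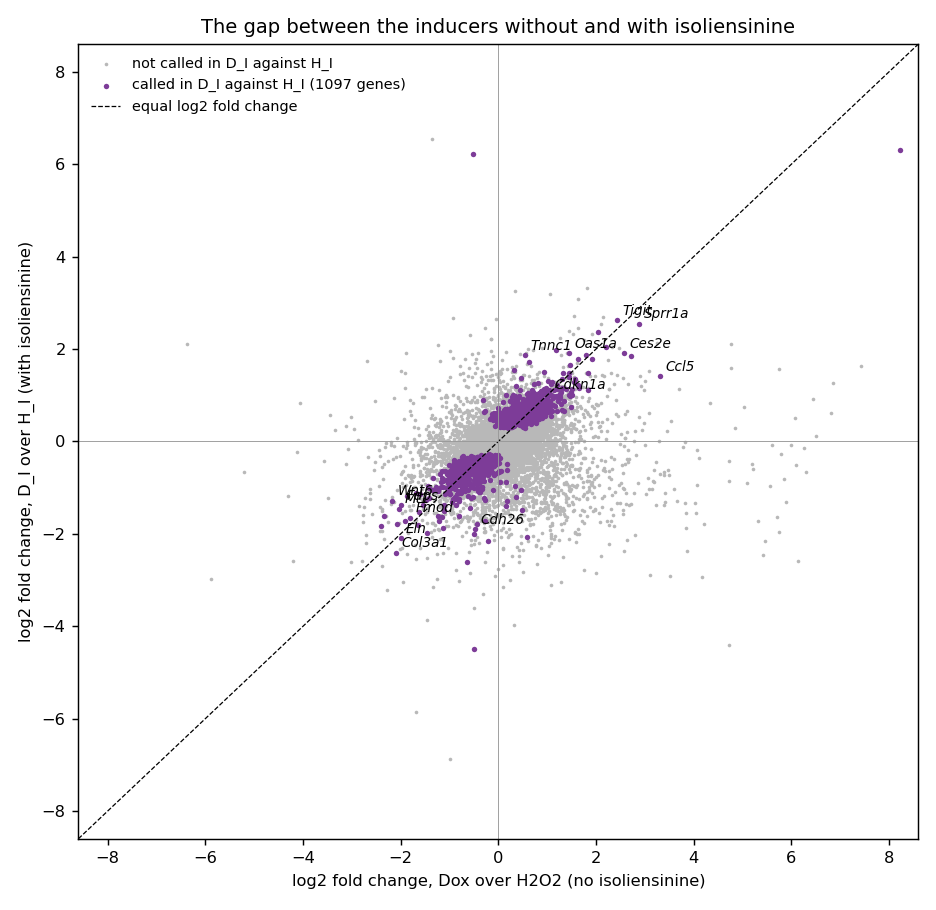
Each point is a gene; the horizontal axis gives the log2 fold change of Dox over H2O2 and the vertical axis that of D_I over H_I, with a dashed line where they are equal. Of the 1097 genes called in D_I against H_I, 1057 lie at the upper right or lower left.

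Whether the gap between the inducers differed with isoliensinine was tested as an interaction, D_I over H_I against Dox over H2O2. EdgeR called 0 of 13375 genes, with 1054 at an unadjusted p under 0.05; DESeq2 called 4 (Egr1, Junb, Mef2d and Adk), and limma on log2(FPKM + 1) called 1, Ccl5. The median SE of this difference was 0.325, so that small differences could not be detected. The genes that follow were picked after their values were seen. Egr1, an immediate early transcription factor, averaged 311 ± 34.8 CPM in D_I and 201 ± 8.63 CPM in H_I, and 209.9 ± 13.3 CPM in Dox and 258 ± 22.6 CPM in H2O2 (SD, n = 3 each). It was higher in every D_I than in every H_I library and lower in every Dox than in every H2O2 library (log2 difference 0.93, SE 0.168, unadjusted p = 1.65e-05, adjusted p = 0.22 by edgeR). Egr1 was called in 6 of 24 alternatives, DESeq2, no filter, the replicate block and the fits with fewer groups or libraries of B_I and Blank, and its adjusted p ranged from 0.000731 to 0.848 over them. For this difference the fit of only the groups compared and the fit without Blank and B_I are the same fit, counted under both names. Ccl5 averaged 5.04 ± 0.691 CPM in D_I and 1.91 ± 0.372 CPM in H_I, and 9.54 ± 1.44 CPM in Dox and 0.965 ± 0.211 CPM in H2O2 (SD, n = 3 each). The Ccl5 fold was smaller with isoliensinine, but the difference was not called (log2 difference -1.90, SE 0.418, unadjusted p = 0.000172, adjusted p = 0.483 by edgeR). B2m averaged 1891 ± 52.2 CPM in D_I and 1329 ± 89.8 CPM in H_I, and 1501 ± 123 CPM in Dox and 1498 ± 114 CPM in H2O2 (SD, n = 3 each; log2 difference 0.51, unadjusted p = 0.00371 by edgeR). Osgin1 and Cxcl12 had log2 differences of 1.22 and -0.66, with edgeR's unadjusted p of 0.000216 and 0.000275.

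**Figure D5:**
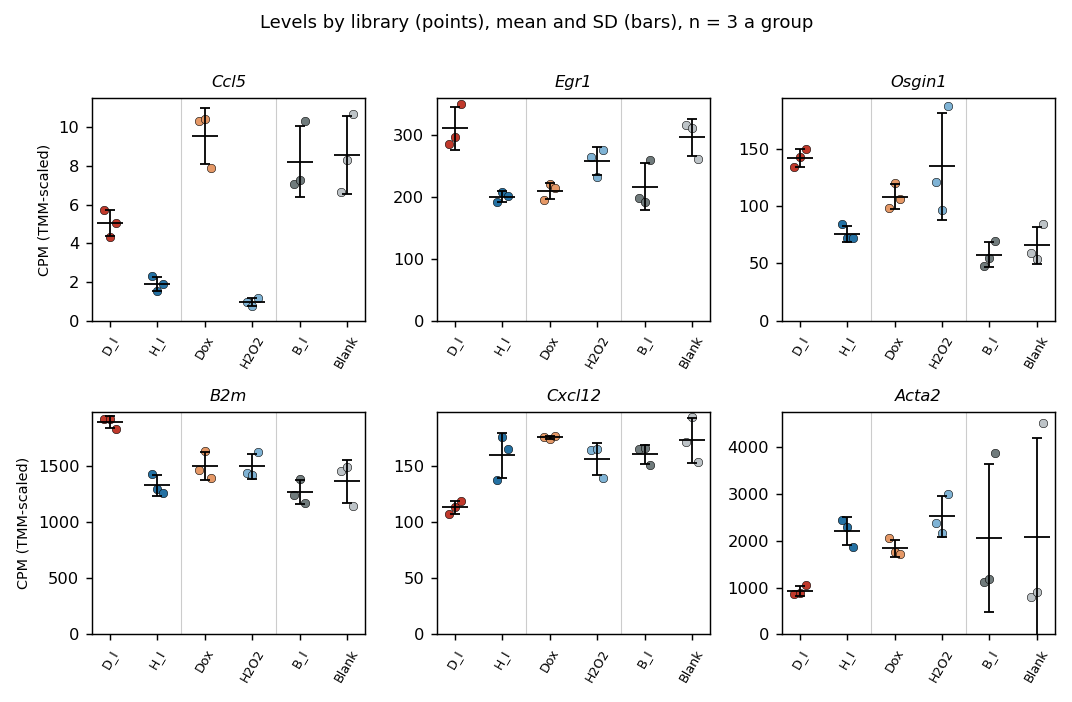
Levels of 6 genes in CPM in each library, by group; points are libraries and bars the mean ± SD (n = 3). Egr1 and Osgin1 are higher in D_I than in H_I while their Dox means lie below their H2O2 means, and Acta2 shows a single high library in both B_I and Blank.

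Set beside B_I, which had isoliensinine and no inducer, the D_I mean was farther off than the H_I mean in 573 of the 633 genes called higher in D_I (90.5%) and in 431 of the 464 called lower (92.9%), against 57.5% of the genes not called. Of the 633 genes called higher in D_I, the B_I mean lay below that of H_I in 306, between H_I and D_I in 318 and above that of D_I in 9. Of the 464 called lower, the B_I mean lay above that of H_I in 322, between in 139 and below that of D_I in 3. Fmod averaged 81.4 ± 8.03 CPM in D_I, 255 ± 52.1 CPM in H_I and 648 ± 116 CPM in B_I, and Cdkn1a 449.9 ± 36.9, 224 ± 11.96 and 117 ± 19.2 CPM in the same order of groups (SD, n = 3 each). Mt1 averaged 336 ± 1.80 CPM in D_I, 922 ± 68.4 CPM in H_I and 1039 ± 337 CPM in B_I, so that H_I lay within the spread of B_I. These orders are descriptions of means and were not tested.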

How the data were processed

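RNA of 18 MOVAS libraries was captured by poly-T beads and copied from random primers, per the labels' protocols; no source used here says whether strand was kept. The submitters' processing notes name fastp 0.22.0, HISAT2 2.1.0 and HTSeq 0.9.1. The deposited table gives whole-number read counts per gene, named read counts per the file headers and not normalized, and FPKM values that the authors derived from them: 100% equalled count times 1000000000 over gene length and library total within a relative 1e-06. Of 21959 genes 51 had no symbol and kept their identifier. No source used here names the genome build, and gene positions in the table were not mixed with GRCm38 sequences.

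Counts were scaled by TMM, filtered by expression in the groups (13375 tested) and fitted in edgeR 4.0.16 (R 4.3.3) with a mean for each of 6 groups, by the robust quasi-likelihood test with Benjamini-Hochberg adjustment at 0.05. CPM values are TMM-scaled. SE is the log2 fold change over the root of the F statistic. The biological coefficient of variation was 0.219. Replicates of a group differed by at least 5.51 in chi-square per degree of freedom, so none was treated as a repeat. The fit was tested on simulated data. For D_I against H_I it called 25.4% of genes changed 1.5-fold, 46.3% of those changed 2-fold and 81.8% of those changed 4-fold. It also called 3 unchanged genes. A gene not called may therefore still differ.

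Members and lists were chosen with earlier results of these data known. Genes named were the 14 highest and 14 lowest called also without H_I_1, with separate libraries and at least 5 FPKM in the higher group. Up to 4 members per list called also without H_I_1 were added, with no limit on overlap or FPKM, and so were 26 fixed genes. Others (Phgdh and Atp2a2 beside the threshold, Actg2, and Junb, Mef2d and Adk, Slc39a7, Lgals3, Cd68, Lmnb2, and members of the collagen list) were named after their values were seen. Alternatives were DESeq2 1.42.0, limma 3.58.1 on log2 FPKM with a pseudocount of 1 or 0.1 (genes that reached 1 FPKM), other scalings, filters and thresholds, fits of fewer groups, a replicate block and each library left out. A fit without H_I_1 and H2O2_3 was chosen after seeing the data. Levels of genes with close copies are uncertain, as are overlapping genes.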

Additional observations from a re-analysis of the deposited data

How the results depend on the processing

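Leaving out one library at a time moved the count of calls between D_I and H_I to 569 to 669, each by more than 1.5 times from 1097, the lowest without D_I_2, and that between Dox and H2O2 to 838 to 1773. The log2 value of Trp53, uncalled throughout, ranged from -0.07501 to 0.01569 and was above 0 without H_I_2. For D_I against H_I, Dox against H2O2 and their difference, the calls were 1814, 2724 and 1 without Blank and B_I, and 1943, 2840 and 1 without Blank_4 and B_I_3. At an adjusted p under 0.01 the first comparisons gave 503 and 808, and at an adjusted p under 0.05 with over 2-fold 153 and 280. Fits of only the groups compared called 3186 genes between D_I and H_I and 1 for the difference, Egr1 in all fits of fewer groups or libraries named here that called 1. For the difference, the fit of only the groups compared is the same as that without Blank and B_I. DESeq2 gave 4 for the difference, no filter 1 (Egr1) and limma 1 with either pseudocount (Ccl5). Without H_I_1 and H2O2_3 the counts were 856 and 1089. The cause of these shifts was not tested.

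Same-numbered libraries of D_I and H_I correlated at -0.12 to 0.08 in their deviations, so the numbers did not pair them. With the replicate block, fitted on the groups compared, 3082 genes were called between D_I and H_I, 788 between Dox and H2O2 and 1 for the difference, Egr1.

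Of the named genes under these alternatives, 1994 values kept direction and side of the threshold, 60 lost their call, 14 gained one and 1 reversed. The largest-change and list genes were picked among those called also without H_I_1, so their call in that fit was fixed by the choice. In that fit 2 of 115 named genes lost their call, while 469 of the 1097 called genes did. These counts therefore do not measure how stable the calls are in general. With 3 libraries a group, the median SE of 0.231 limits which differences could be called.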

Other observations

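Genes called lower in D_I than in H_I were shorter than those called higher. The median genomic span was 26735 bases for the 633 higher genes and 17775.5 bases for the 464 lower ones, against 24853 bases for all 13375 tested. The median of the gene lengths listed in the deposited table was 5502 bases for the higher and 3494.5 bases for the lower genes, against 4517 bases for all tested. These are descriptions across genes, which are not independent, and were not tested. Lengths were not compared for the calls without H_I_1, which were 272 higher and 391 lower.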
